A study of Homo sapiens with 16 samples.

Results

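EZH2 is the methyltransferase of PRC2, Polycomb repressive complex 2, which places H3K27me3 on histone H3, and most EZH2 peaks of the library described here overlapped that mark. The peaks described here are the exceptions: EZH2 peaks of LNCaP cells with a control guide and DMSO that overlapped, by as little as 1 bp, neither a peak of H3K27me3 nor a peak of H3K4me3, the mark of active promoters, in the same condition. There were 510 such peaks among the 11433 EZH2 peaks of that library on chromosomes 1 to 22 and X, a share of 4.46% (exact 95% binomial interval 4.09 to 4.86). Of the other EZH2 peaks 7633 overlapped H3K27me3 only, 2730 overlapped H3K4me3 only and 560 overlapped both. The members were chosen by the EZH2, H3K27me3 and H3K4me3 peak lists of that condition, so the absence of both marks there is the rule and not a result.

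Binding was measured by CUT&RUN, in which a nuclease tethered to an antibody releases the fragments around its target, in LNCaP, an established androgen-responsive line from a prostate carcinoma. The cells had been given a control guide, sgControl (here sgC), or sgPRKCI, which targets the atypical protein kinase C gene PRKCI, and received DMSO or 10 µM enzalutamide, an androgen receptor antagonist, for 72 h. This gave 4 conditions, called sgC DMSO (the baseline), sgPRKCI DMSO, sgC enzalutamide and sgPRKCI enzalutamide, and values for several conditions follow this order. EZH2, H3K27me3 and H3K4me3 were each profiled in 1 library per condition, so there is no replicate spread, no difference between conditions has a replicate check, and none was tested. Loss of PRKCI cannot be checked in these peak lists, and whether a guide line is a clone or a pool is not given in the sources used here. Intervals are exact 95% binomial intervals for counting error only, and peaks of 1 library are not replicates. The 12 lists held between 6165 and 24517 peaks for EZH2, 17396 and 19260 for H3K4me3, and 78641 and 100209 for H3K27me3, and read totals are not known. Mean fragment coverage of the EZH2 libraries, as recovered from their peaks, was 1.35 at baseline, 1.13 with sgPRKCI and DMSO, 1.68 with sgC and enzalutamide, and 1.53 with sgPRKCI and enzalutamide. H3K4me3 lay within 1 kb of a gene end at 10 of 10 luminal prostate markers at baseline, and at 1 of 8 markers of other cell types, the collagen gene COL1A1.

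As background, PRC2 is recruited in mammalian cells mainly to unmethylated CpG-rich promoters of silent developmental genes, from which H3K27me3 spreads over broad domains. H3K4me3 marks the starts of active or poised genes, and a promoter that holds both marks is called bivalent. In prostate cancer EZH2 has also been studied for roles apart from PRC2, at sites without H3K27me3.

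The promoters of 4 members show the range of sequences at which these peaks lay. Each is the RefSeq window of GRCh38.p14 that runs from 250 bases before to 50 bases after the annotated start, written 5′ to 3′ on the strand of the gene, with every CG dinucleotide in capitals. RGMA (chr15:93073107-93073406, minus strand) is shown because H3K4me3 was called there in all 3 other conditions. KCTD8 (chr4:44448760-44449059, minus strand) is shown because both marks were. FNDC1 (chr6:159169150-159169449, plus strand) and ACP3 (chr3:132317157-132317456, plus strand) are shown because neither mark was called in any condition, with many and with few CG dinucleotides. FNDC1 was chosen after its values were seen.
RGMA: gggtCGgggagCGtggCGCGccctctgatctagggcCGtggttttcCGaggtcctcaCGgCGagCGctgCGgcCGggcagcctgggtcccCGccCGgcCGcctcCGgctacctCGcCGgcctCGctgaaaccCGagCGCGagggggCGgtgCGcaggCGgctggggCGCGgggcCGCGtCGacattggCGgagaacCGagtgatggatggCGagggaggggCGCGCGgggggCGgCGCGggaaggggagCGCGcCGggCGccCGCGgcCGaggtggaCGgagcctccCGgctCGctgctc
KCTD8: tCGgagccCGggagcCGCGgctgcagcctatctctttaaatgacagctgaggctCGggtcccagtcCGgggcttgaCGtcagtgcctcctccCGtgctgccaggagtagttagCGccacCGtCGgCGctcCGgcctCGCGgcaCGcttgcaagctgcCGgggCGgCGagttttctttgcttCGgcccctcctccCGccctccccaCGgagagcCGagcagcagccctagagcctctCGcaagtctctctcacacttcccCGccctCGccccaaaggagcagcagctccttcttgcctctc
FNDC1: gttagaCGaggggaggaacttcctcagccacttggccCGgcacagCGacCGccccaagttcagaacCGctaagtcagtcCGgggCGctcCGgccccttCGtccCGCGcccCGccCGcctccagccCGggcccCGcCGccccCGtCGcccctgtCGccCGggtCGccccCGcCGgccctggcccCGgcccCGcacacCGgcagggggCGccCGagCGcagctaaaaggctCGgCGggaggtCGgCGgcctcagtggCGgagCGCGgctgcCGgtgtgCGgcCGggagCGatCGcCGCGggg
ACP3: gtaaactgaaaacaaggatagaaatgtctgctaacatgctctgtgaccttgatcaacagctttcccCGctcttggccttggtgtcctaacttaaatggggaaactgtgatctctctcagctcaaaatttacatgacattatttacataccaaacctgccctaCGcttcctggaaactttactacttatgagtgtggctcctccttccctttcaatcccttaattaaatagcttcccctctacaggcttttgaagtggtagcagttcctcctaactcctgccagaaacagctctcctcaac
The windows of RGMA, KCTD8, FNDC1 and ACP3 held 48, 26, 43 and 2 CG dinucleotides. The hairpin of MIR6724-2, a microRNA on the short arm of chromosome 21 (chr21:8249505-8249596, plus strand), is shown as an example of the sequence under the high-background members. That member, of high local background, lay near the 45S ribosomal RNA units but outside their annotated bounds. Another copy, MIR6724-1, lay under an EZH2 peak that overlapped the unit RNA45SN2. The 31 of its 92 bases that lay inside the member peak are in capitals.
MIR6724-2: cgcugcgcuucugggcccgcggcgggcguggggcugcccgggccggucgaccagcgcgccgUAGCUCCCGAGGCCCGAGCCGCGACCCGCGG

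The members were weak and narrow peaks for the EZH2 list. Their median fold enrichment over the local background, the value of the authors' peak caller, was 5.53 (range 1.53 to 22.5), against 6.38 for peaks with H3K27me3 only, 5.38 with H3K4me3 only and 8.50 with both. The median −log10 q was 6.98, the lowest of the classes, against 8.88, 8.65 and 18.5. A −log10 q under 6 was held by 34.7% of members, 19.9% of peaks with H3K27me3 only, 19.9% with H3K4me3 only and 3.93% with both. The list's own threshold lay just above 4, so the members were the class most crowded against it. Their median width was 322.5 bp, against 559, 414 and 1010 bp. Width is tied to the rule, since a narrower peak has fewer bases with which a mark can overlap. At the summit the median member held 15 fragments, and a class median of 17, 21.5 and 29 fragments was recovered for the others.

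**Figure D1:**
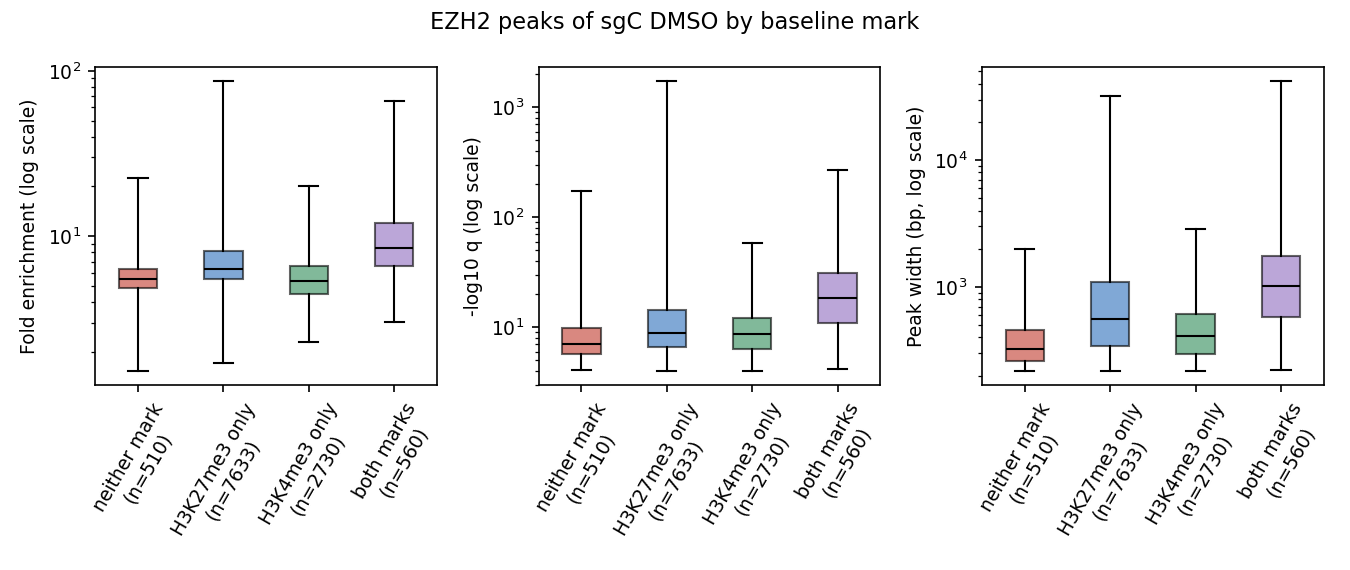
EZH2 peaks of sgC DMSO by the mark they overlapped at baseline: fold enrichment, −log10 q and width in bp, each on a log scale, with boxes from the lower to the upper quartile, a line at the median and whiskers to the lowest and highest peak. The 510 peaks with neither mark have the lowest median −log10 q (6.98) and the lowest median width (322.5 bp) of the 4 classes.

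Peaks lay close to the border of the rule on both of its sides. The nearest mark peak lay within 50 bp of 32 members, and 32 other EZH2 peaks shared no more than 50 bp with a mark. The members nearest to a mark were chr2:176454834-176455176 (2 bp away), chr20:56344034-56344505 (3 bp) and chr2:199471659-199471880 (3 bp), with fold enrichments of 4.47, 8.65 and 6.23. Just outside lay chr5:52150762-52151036 and chr8:3385711-3386161, which shared 1 and 5 bp with H3K27me3, and chr17:72560794-72561021, which shared 6 bp with H3K4me3, with fold enrichments of 5.53, 6.62 and 5.90.

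The members with the highest −log10 q lay in sequence of very high coverage. Of the top 10 by −log10 q, 9 lay in places where the local background was at least 10 times the genome's mean coverage, a value chosen after these sites were seen, and none of the top 10 by fold enrichment did. Over all members 24 had such a background (4.71%, 3.04 to 6.92), against 0.812% of peaks with H3K27me3 only, 0.330% with H3K4me3 only and 1.61% with both. Their background was 10.4 to 156 times the genome coverage, they held 38 to 623 fragments at the summit, and their fold enrichment was only 1.53 to 4.09. On the short arm of chromosome 21 lay 17 of them, 11 inside the units of the 45S pre-ribosomal RNA genes RNA45SN1, RNA45SN2 and RNA45SN3, whose product is cut into 18S, 5.8S and 28S ribosomal RNA. The rest of the 17 included members at MIR6724-2, RNA5-8SP10, LOC110467529 and MIR3648-2. Other copies of MIR6724 and MIR3648 lay under EZH2 peaks that overlapped RNA45SN2. The count of 11 thus covers the annotated units only, and ribosomal sequence outside them was not counted. Members made up 23 of the 116 EZH2 peaks of chromosome 21 (19.8%, 13.0 to 28.3), and on every other chromosome at most 8.28%. The ribosomal DNA copies are near-identical and the assembly holds only some of them, so reads cannot be assigned to a copy with certainty and a high count there can gather many copies.

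**Figure D2:**
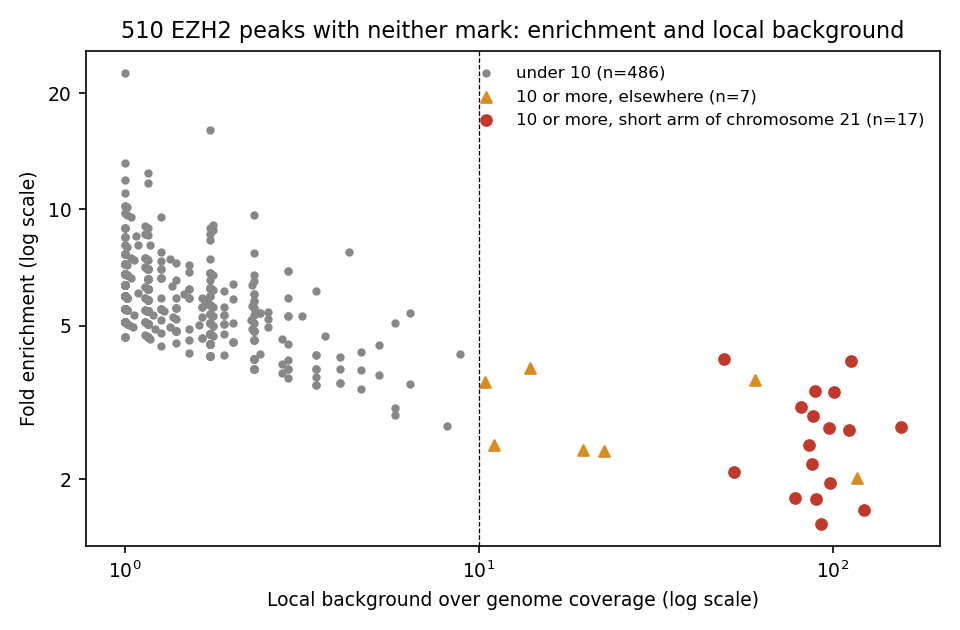
Fold enrichment against local background over the genome's mean coverage for the 510 members, both on log scales; the dashed line is a background of 10. Of the 24 members to its right 17 lie on the short arm of chromosome 21, and their fold enrichments run from 1.53 to 4.09, while the strongest member by fold, at 22.5, has a background near 1.

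The member with the highest −log10 q, chr21:8209652-8211658, covered the 18S gene RNA18SN2. It had 623 fragments and an EZH2 fold enrichment of 4.05, 2.34, 2.13 and 1.67 in the 4 conditions, with neither mark in any condition. The local background was 113, 142, 218 and 155 times the genome coverage in the same order. EZH2 thus stood over the background used by the peak caller in all 4 libraries, by a small factor. Whether that background was read from the sequence around the peak or from a control library is not given in the sources used here. A member at the 28S gene RNA28SN3, chr21:8400551-8401752, had fold enrichments of 2.73, 2.34, 1.23 and 1.57. Baseline EZH2 peaks that did overlap H3K27me3 lay among them. Those at the 18S and 28S genes RNA18SN3, RNA28SN3 and RNA18SN1 had fold enrichments of 4.03, 3.87 and 3.40, close to the members' range. A peak at chr21:8402527-8412309, outside the annotated units, had 17.6, and the long peak chr21:8217502-8249313, which overlapped RNA28SN2 and ran beyond it over the pseudogene CDC27P9, had 15.5. The other high-background members included 1 in HFM1, a meiotic helicase (chr1:91387257-91387520, 3.61-fold), and sites near the centromeres of chromosomes 1, 5 and 17.

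Most members lay within 10 kb of H3K27me3 at baseline. H3K27me3 of the same condition was found within 1 kb of 246 members (48.2%, 43.8 to 52.7) and within 10 kb of 441 (86.5%, 83.2 to 89.3), at a median distance of 1045 bp. Of the unmarked, EZH2-free bins 4.41% and 20.4% lay as near, and of all baseline EZH2 peaks, most of which overlapped the mark, 74.9% and 80.9%. Peaks with H3K4me3 only had it within these distances in 4.51% and 22.6%. It lay on both sides within 5 kb of 253 members (49.6%), so that about as many sat between H3K27me3 peaks at this range as did not. Of all baseline EZH2 peaks 71.8% had it so, and no share of bins was computed. Whether the peaks on both sides belong to the same domain was not tested. The nearest H3K4me3 peak was at a median distance of 199444 bp, and only 11 members had one within 1 kb. Over 100 kb from H3K27me3 there were 22 members.

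The members lay mostly away from the ends of coding genes. A coding gene end lay within 1 kb of 46 members (9.02%, 6.68 to 11.8), against 14.9% of EZH2 peaks with H3K27me3 only, 76.8% with H3K4me3 only and 67.0% with both. Among all 1 kb bins of the genome free of EZH2 and both marks at baseline the share was 2.56%, and among all baseline EZH2 peaks 32%. Counting the ends of all annotated genes, 99 members (19.4%) were at a gene end, against 7.67% of these bins. Inside a coding gene lay 162 members (31.8%; bins 38.2%), inside a non-coding gene or pseudogene 53 (10.4%; bins 11.4%) and between genes 196 (38.4%; bins 42.7%). More than 50 kb from any coding gene lay 187 members (36.7%), against 29.4% of peaks with H3K27me3 only. A bin of 1 kb is wider than the median member, which raises the share of bins at any feature.

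The coding genes with a member inside or within 1 kb were long. There were 203, with a median length of 190.7 kb against 24.2 kb for all coding genes, 71.2 kb for those with an H3K27me3 only peak and 45.6 kb for those with an H3K4me3 only peak. A longer gene offers more room for a peak, and length was not adjusted for. CSMD1, a membrane protein that restrains complement and one of the longest human genes at 2059.55 kb, held 16 members among its 195 EZH2 peaks. TENM3, a teneurin of neuronal wiring, held 5 of 65, and AGMO and SGCZ held 4 of 6 and 4 of 15. AGMO encodes an enzyme that cleaves ether lipids, and SGCZ encodes zeta-sarcoglycan. When members within 100 kb of each other were chained, 384 of 429 stretches held a single member. Of the 3 stretches with the most members, 1 lay in CSMD1 (chr8:4615074-5011141), where 9 of 48 EZH2 peaks were members, and the others lay on the short arm of chromosome 21, where the 45S ribosomal RNA units are annotated.

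The 31 RefSeq promoter windows that a member overlapped were rich in CG dinucleotides. Their median was 27 per 300 bases, with an observed over expected ratio of 0.81 and a GC content of 67%, against 14, 0.58 and 58.7% for all 34961 windows. At least 15 CG dinucleotides were held by 83.9% of them, against 49.0% of all windows, 74.1% of windows with H3K27me3 only peaks and 96.1% with H3K4me3 only peaks. The windows cover both strands alike, since CG reads the same on each, and chromosome 8 was not used here for promoter windows. The promoter of ACP3 printed above, with 2 CG dinucleotides, lay at the low end and that of RGMA, with 48, at the high end.

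H3K27me3 was called at many members in the other conditions. It overlapped 177 with sgPRKCI and DMSO (34.7%, 30.6 to 39.0), 234 with sgC and enzalutamide (45.9%, 41.5 to 50.3) and 192 with sgPRKCI and enzalutamide (37.6%, 33.4 to 42.0). In the same order 3.88%, 5.27% and 4.04% of the unmarked, EZH2-free bins overlapped it, and 70.9%, 73% and 70.6% of all baseline EZH2 peaks. At least 1 of these conditions had it at 292 members (57.3%; bins 8.32%), and all 3 had it at 112. Enzalutamide alone of the 3 had it at 52 members, sgPRKCI DMSO alone at 25 and sgPRKCI enzalutamide alone at 16. The H3K27me3 list of sgC DMSO covered 191 Mb, and those of the other conditions covered 232, 289 and 249 Mb in the same order, so that the condition with the most H3K27me3 at members also had the widest list. The part of list coverage in these shares was not tested.

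**Figure D3:**
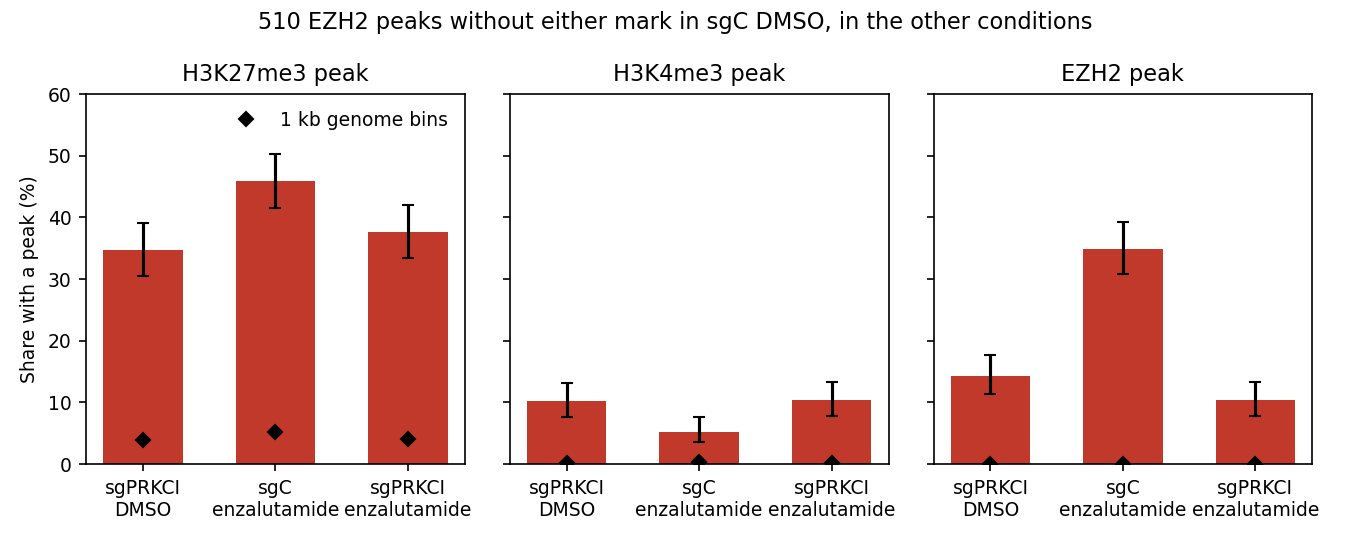
Share (%) of the 510 members with a peak of H3K27me3, H3K4me3 or EZH2 in each condition other than sgC DMSO; bars are shares, error bars exact 95% binomial intervals, and diamonds the share of 1 kb genome bins free of all 3 at baseline. H3K27me3 lies between 34.7% and 45.9%, H3K4me3 between 5.29% and 10.4%, and EZH2 is highest in sgC enzalutamide at 34.9%.

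These shares were highest next to baseline H3K27me3. Among the 246 members within 1 kb of it, 51.6%, 69.9% and 60.2% had H3K27me3 in sgPRKCI DMSO, sgC enzalutamide and sgPRKCI enzalutamide, while bins at the same distance had it in 36.1%, 46.5% and 34.7%. For the 195 members at 1 to 10 kb the shares were 19.5%, 26.2% and 17.4%, against 9.40%, 13.5% and 9.34% of bins. Bins next to baseline H3K27me3 were thus also marked far more often than the genome at large, and at each distance the members stood above the bins. Among the 22 members beyond 100 kb, 5, 4 and 2 had the mark, against 0.397%, 0.374% and 0.647% of bins, with intervals as wide as 7.82 to 45.4% around the first. The H3K27me3 peaks at members were not the faintest of their lists: their median −log10 q was 2.67, 2.67 and 3.05, against 1.86, 1.65 and 2.08 over each list. Here, and for H3K4me3 below, each member was given its overlapping peak of highest −log10 q. A long peak could count for several members, while the list median counts each peak once, so these medians are not built alike.

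**Figure D4:**
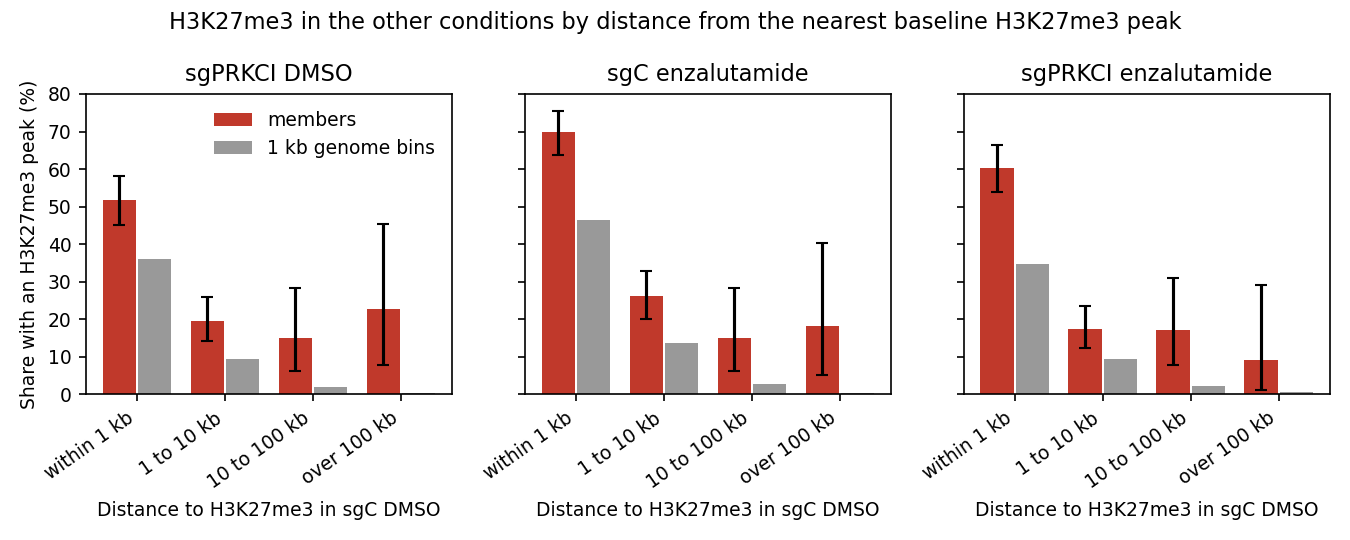
Share (%) with an H3K27me3 peak in each other condition, for members (red, exact 95% binomial intervals) and for unmarked 1 kb genome bins (grey), by distance to the nearest H3K27me3 peak of sgC DMSO. Within 1 kb the members reach 51.6%, 69.9% and 60.2% and the bins 36.1%, 46.5% and 34.7%.

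H3K4me3 was called at fewer members. It overlapped 52 with sgPRKCI and DMSO (10.2%, 7.71 to 13.2), 27 with sgC and enzalutamide (5.29%, 3.52 to 7.61) and 53 with sgPRKCI and enzalutamide (10.4%, 7.88 to 13.4). Bins had it in 0.233%, 0.282% and 0.243%, and all baseline EZH2 peaks in 30.8%, 29.9% and 31.1%. At least 1 condition had it at 74 members (14.5%; bins 0.465%), and all 3 at 17. The 2 sgPRKCI libraries shared 18 members that sgC enzalutamide lacked, while each pair that held sgC enzalutamide shared fewer, 2 with sgPRKCI DMSO and 4 with sgPRKCI enzalutamide. The H3K4me3 peaks at members were weak: their median fold enrichment was 7.28, 6.68 and 7.13 against 21.1, 20.3 and 24.4 over each list, and 100% had a −log10 q under the median of their list. The rule keeps members off every baseline H3K4me3 peak, while the lists hold peaks at such sites too. This difference is therefore tied to the rule, and no comparison with H3K4me3 peaks at unmarked bins was made. Members at a gene end had the mark most often, at 26.3%, 14.1% and 25.3%, against 5.61%, 3.06% and 7.14% of members between genes.

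Neither mark was called in any condition at 179 members (35.1%, 31.0 to 39.4; bins 91.2%). H3K27me3 without H3K4me3 was found at 257 over the other conditions, H3K4me3 without H3K27me3 at 39 and both at 35. The share with no mark depended on the rule for overlap and strength: it was 20.6% when a mark within 1 kb counted, 48.6% at a −log10 q of at least 10 and 52.7% when members within 1 kb of a baseline mark were left out.

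EZH2 itself was called again at few members. A peak overlapped 73 with sgPRKCI and DMSO (14.3%, 11.4 to 17.7), 178 with sgC and enzalutamide (34.9%, 30.8 to 39.2) and 53 with sgPRKCI and enzalutamide (10.4%, 7.88 to 13.4). Bins had one in 0.00515%, 0.0463% and 0.0168%, and all baseline EZH2 peaks in 36.9%, 65.6% and 60.7%. No other condition had EZH2 at 288 members (56.5%, 52.0 to 60.8), against 13.7% of peaks with H3K27me3 only, 1.32% with H3K4me3 only and 1.25% with both. All 4 conditions had it at 16 members (3.14%), against 32.0%, 7.62% and 64.5%. The sgPRKCI enzalutamide list was the longest of the EZH2 lists and held 97.5% of the peaks with H3K4me3 only and the fewest members. Of the 24 members with a high local background, 12, 5 and 18 were called again in sgPRKCI DMSO, sgC enzalutamide and sgPRKCI enzalutamide, and of the remaining 486 members 12.6%, 35.6% and 7.20%. High-background sites thus made up 18 of the 53 members with EZH2 in sgPRKCI enzalutamide. H3K27me3 was called at 3, 1 and 0 of the 24 and H3K4me3 at 0 in each condition. A count of 0 of 24, read as fewer than 3 counts, allows a share of up to 12.5%, and the exact 95% interval reaches 14.2%. When each EZH2 list was cut to its strongest peaks at the length of the shortest list, sgPRKCI enzalutamide held 0 of 510 members, which allows a share of up to 0.588% when 0 is read as fewer than 3 counts, and sgC enzalutamide held 87 (17.1%).

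The low recall was not confined to the weakest members. Among members with a −log10 q above 12, 41.2% (29.4 to 53.8), 41.2% and 33.8% were called in sgPRKCI DMSO, sgC enzalutamide and sgPRKCI enzalutamide. H3K27me3 only peaks above 12 were called in 82.0%, 97.3% and 79.9%. That bin has no upper end, and H3K27me3 only peaks reached 1722 and members 174, so strength was not matched within it. H3K27me3 only peaks were also wider (median 559 against 322.5 bp), and a wider peak has more bases with which to overlap. Among members between 4 and 6 the shares were 5.65%, 24.9% and 2.26%, against 12.8%, 62.9% and 23.1%. Without the members of high local background the shares above 12 were 33.3%, 45.1% and 17.6% of 51 members. In sgPRKCI DMSO the members' shares lay near those of the H3K4me3 only peaks, which were called in 7.73% at the low and 37.6% at the high end. In sgPRKCI enzalutamide they did not, since H3K4me3 only peaks were called in at least 96.7% at every strength.

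**Figure D5:**
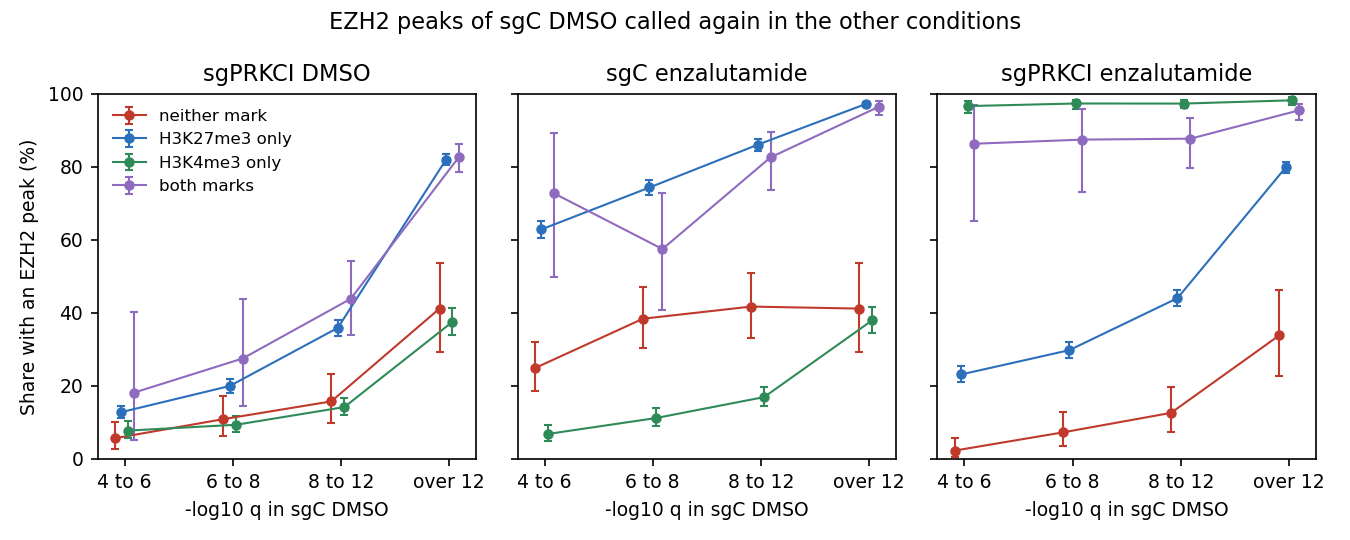
Share (%) of baseline EZH2 peaks with an EZH2 peak in each other condition, by −log10 q in sgC DMSO and by baseline mark; points are shares and bars exact 95% binomial intervals. Members above a −log10 q of 12, a bin with no upper end, reach 41.2%, 41.2% and 33.8%, and H3K27me3 only peaks in that bin 82.0%, 97.3% and 79.9%.

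The marks were also counted with and without an EZH2 peak in the same condition. H3K4me3 was more frequent at members with EZH2 in each of the 3 conditions, at 24.7% against 7.78%, 8.99% against 3.31% and 43.4% against 6.56%. In sgC enzalutamide H3K27me3 lay at 115 of the 178 members with EZH2 (64.6%, 57.1 to 71.6) and at 119 of the 332 without (35.8%, 30.7 to 41.3). In sgPRKCI enzalutamide the shares were 11 of 53 (20.8%, 10.8 to 34.1) with EZH2 and 181 of 457 (39.6%, 35.1 to 44.3) without, but among members of local background under 10 they were 31.4% (16.9 to 49.3) of 35 and 40.1% (35.6 to 44.8), with intervals that overlapped. H3K4me3 lay at 23 of those 53 (29.8 to 57.7%) and at 30 of the 457 (4.47 to 9.24%), and at 65.7% (47.8 to 80.9) of the 35. In sgPRKCI DMSO H3K27me3 lay at 34 of 73 members with EZH2 (46.6%, 34.8 to 58.6) and at 143 of 437 without (32.7%, 28.3 to 37.3), the same direction as in sgC enzalutamide. These shares come from 1 library per antibody, and the difference between conditions was not tested.

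Away from the high-background sites, the strongest member lay far out on the long arm of chromosome 4, at chr4:189540841-189542245, 398627 bp from FRG1. EZH2 was enriched there 22.5-fold at baseline, 21.6-fold with sgPRKCI alone, 36.2-fold with enzalutamide alone and 7.75-fold with both. H3K27me3 was called in each of the other conditions, at a fold enrichment of 3.28, 3.46 and 3.68, while the nearest H3K27me3 peak of sgC DMSO was 226157 bp away. The site thus had EZH2 in every library and lacked H3K27me3 only at baseline, by the peak lists. The next by fold, chr20:63056323-63056988, lay 49359 bp from BHLHE23, a basic helix-loop-helix transcription factor, and carried EZH2 in all 4 libraries (16.1, 12.2, 17.2 and 6.07-fold) and no mark in any. Only 3 members had that pattern, and the other two were the RNA18SN2 and RNA28SN3 sites above. Baseline H3K27me3 lay 1143 bp from the chromosome 20 site.

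Further members with H3K27me3 in all 3 other conditions lay inside CDC27, a subunit of the anaphase-promoting complex, and inside SHANK1, a postsynaptic scaffold. The CDC27 site (chr17:47136299-47136759), which also overlapped the locus LOC112268192, had an EZH2 fold enrichment of 7.76, 5.84 and 11.1 in the first 3 conditions and no peak in sgPRKCI enzalutamide. Other copies of CDC27 sequence exist in the genome, among them pseudogenes in the chromosome 21 stretch, so its reads may be shared. The SHANK1 site (chr19:50679373-50679923) had fold enrichments of 9.12, 7.79 and 5.63 in the same libraries, and H3K27me3 of 6.60, 6.22 and 6.63-fold in the other conditions. It also had H3K4me3 at 6.47-fold in sgPRKCI DMSO. The remaining 2 of the top 5 were chr1:143501049-143501888, at the end of a non-coding or pseudogene locus, and chr9:135412188-135413017, which lay 66049 bp from PPP1R26. Unlike the chromosome 4 site, these members bordered baseline H3K27me3. It lay 493 bp from the CDC27 site, 183 bp from the SHANK1 site, 251 bp from the chromosome 1 site and 13 bp from the chromosome 9 site.

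Of the 17 members with H3K4me3 in all 3 other conditions, the 5 with the highest −log10 q lay in or next to RGMA, the protocadherin gamma cluster, GPR153, KCTD8 and GLI2. RGMA, a guidance molecule and BMP co-receptor, had EZH2 in all 4 conditions, at 8.65, 8.87, 6.03 and 4.25-fold, and H3K4me3 at 8.03, 9.62 and 11.7-fold in the 3 others. The nearest baseline H3K4me3 peak was 154731 bp away. KCTD8, an auxiliary subunit of GABA-B receptors, had both marks in all 3, with H3K4me3 at 6.77, 4.41 and 7.46-fold and H3K27me3 at 3.44, 3.54 and 4.40-fold. GPR153, an orphan receptor, also had both marks in all 3, and its H3K4me3 was 9.02, 9.68 and 7.13-fold. Baseline H3K27me3 lay 876 bp from the KCTD8 member and 44 bp from the GPR153 member. In the protocadherin gamma cluster (PCDHG, chr5:141475554-141476448), a set of neuronal cell-surface proteins, H3K4me3 was 10.2, 8.02 and 20.7-fold. GLI2, a transcription factor of Hedgehog signalling, had H3K4me3 at 9.09, 6.68 and 15.9-fold, and EZH2 in sgC DMSO (6.41-fold), sgC enzalutamide (4.56) and sgPRKCI enzalutamide (9.47). These H3K4me3 values were all below the medians of the lists, 21.1, 20.3 and 24.4, as they were for the class, a difference tied to the rule as said above.

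Of the members that never had a mark, 126 (24.7% of the 510) had EZH2 in sgC DMSO alone. The strongest were in CDH22, a cadherin (chr20:46230679-46231126, 12.5-fold), 4155 bp from GABRR3, a GABA receptor subunit (chr3:98039470-98039745, 11.7-fold), in a non-coding gene more than 1 Mb from CSMD3 (chr8:111100740-111101201, 11.9-fold), near the centromere of chromosome 5 (chr5:48970171-48970397, 5.40-fold) and in GRM8, a glutamate receptor (chr7:127107662-127108150, 10.2-fold). With 1 library each, EZH2 at these sites has no second measurement.

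Among members within 1 kb of a coding gene end, the strongest lay in the protocadherin alpha cluster (PCDHA, chr5:140821800-140822607), with EZH2 at 13.2-fold in sgC DMSO and 9.33-fold in sgC enzalutamide and H3K27me3 at 3.28-fold in sgC enzalutamide alone. The others by −log10 q were ADAMTS10, an extracellular metalloprotease, PCDHG, SPRY4, ACP3, GPR153, KCTD8 and RAB39A, a small GTPase. SPRY4, an inhibitor of receptor tyrosine kinase signalling, had EZH2 in all 4 conditions at 6.13, 9.35, 7.97 and 9.06-fold. It also had H3K27me3 in all 3 others, at 3.61, 3.53 and 3.45-fold, and H3K4me3 in both sgPRKCI conditions at 13.4 and 10.8-fold. ADAMTS10 had H3K27me3 in sgC enzalutamide and no further EZH2 peak, and RAB39A had H3K4me3 in sgPRKCI DMSO and sgC enzalutamide and no further EZH2 peak. Baseline H3K27me3 lay 128 bp from the PCDHA member, 28 bp from the SPRY4 member and 1645 bp from the ADAMTS10 member.

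Members were rare at genes of the lists of related function, as they were at all coding genes, 203 of 19974 (1.02%). Some baseline EZH2 peak lay at 4337 of all coding genes (21.7%). Of 20 androgen response genes, ACP3 alone bore a member, and some baseline EZH2 peak lay at 5 of the 20 (25%). ACP3, prostatic acid phosphatase, had a member at its start (chr3:132317409-132317631) with 6.77-fold EZH2 in sgC DMSO, no EZH2 peak in the other conditions and neither mark in any, and baseline H3K27me3 was 69331 bp away. Of 183 developmental transcription factors, FOXD4 and FOXP2 bore one (1.09%), near the share of all coding genes. Some baseline EZH2 peak lay at 88 of the 183 (48.1%). FOXD4 (chr9:116240-116459) had 8.01-fold EZH2 in sgC DMSO alone and H3K27me3 in all 3 other conditions, at 3.23, 6.39 and 4.25-fold. The nearest baseline H3K27me3 peak was 6939 bp from the FOXD4 member. FOXP2, a forkhead factor tied to speech, held 2 members, the stronger at chr7:114624420-114624648 with 5.53-fold EZH2. None of 15 neuroendocrine genes, 85 cytosolic ribosomal protein genes, 228 genes of multi-copy families or 517 zinc finger genes bore one inside or within 1 kb. Some baseline EZH2 peak lay at 8, 3, 45 and 72 of them (53.3%, 3.53%, 19.7% and 13.9%). A member named after its values were seen lay 1801 bp from SOX2, of the neuroendocrine list (chr3:181709690-181710124). EZH2 there was 7.73-fold in sgC DMSO and 9.65-fold in sgC enzalutamide, with no peak in either sgPRKCI condition. H3K27me3 was called at this member in both enzalutamide conditions. Baseline H3K27me3 lay 219 bp away, and on both sides within 5 kb, so the site already bordered the mark.

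EZH2 peaks with neither mark were built in the same way from each condition's own lists. They numbered 510 at baseline (4.46% of the EZH2 list), 128 with sgPRKCI and DMSO (2.08%), 427 with sgC and enzalutamide (2.78%) and 164 with sgPRKCI and enzalutamide (0.669%). Those of the other conditions fell on 29, 48 and 27 of the 510 baseline members, and 24.2%, 11.5% and 19.5% of them lay on one. For scale, 36.9%, 65.6% and 60.7% of all baseline EZH2 peaks had an EZH2 peak in these conditions. A member can leave the class because EZH2 was not called or because a mark was, so this overlap is no measure of moved binding. Local backgrounds of 10 or more were held by 24, 34, 19 and 47 of them (4.71%, 26.6%, 4.45% and 28.7%) in the order of the conditions. Such sites thus made up more of the class in both sgPRKCI lists than in both sgC lists, and with 1 library each the difference was not tested. The class was also smaller in both sgPRKCI lists, which raises these shares. Over all baseline EZH2 peaks the share was 0.910%, and it is not given here for the other lists.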

How the data were processed

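The labels for guide, treatment and antibody set the groups of these LNCaP CUT&RUN libraries. Of 16 samples 12 were used, and 4 with IgG were not used here. The submitters' processing notes name FastQC, Trimmomatic, Bowtie2, SAMtools, MACS2 and GRCh38, with no version or setting. Per the file layout the authors deposited narrow peaks (EZH2, H3K4me3) and broad peaks (H3K27me3), with 1 list per library. Per the authors' deposited lists, a peak has a fold enrichment (a ratio), its −log10 p, its −log10 q and a score, all from their caller, and these values describe peaks within a list and set no common scale between libraries.

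Overlaps needed at least 1 bp. For each EZH2 peak the summit fragments and the local background were solved from its fold enrichment and −log10 p (tolerance 0.002 in −log10 p), which gave whole fragments for at least 99.9% of peaks, with a pileup scale of 0.890 for sgPRKCI enzalutamide, and were tested on simulated peaks. Whether the caller took this background from a control library is not given in the sources used here. Genes, promoters and microRNAs came from RefSeq (GRCh38.p14). The gene table gives no strand, so gene ends were used in place of starts, and chromosome 8 was not used for promoter windows. Background shares came from 2697413 bins of 1 kb, of 3029677, with no EZH2 and no mark at baseline. Members beyond chromosomes 1 to 22 and X were left out.

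With 1 library per antibody and condition no test was run. Members, lists and comparisons were chosen with earlier results of these data known. Named sites were the 10 members of highest −log10 q, the 5 highest in each of 4 mark patterns, the 8 highest within 1 kb of a coding gene end, up to 4 genes per list, the 3 stretches with most members, and 3 sites on each side of the rule's border; others are named as chosen after their values were seen. Alternatives covered the overlap, the q threshold, merging, list length, distance to marks and gene windows. Python 3.11.15, pandas 2.3.3, NumPy 2.4.6, SciPy 1.17.1 and matplotlib 3.10.9 were used.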

Additional observations from a re-analysis of the deposited data

Results flagged for a closer look

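Outside chromosomes 1 to 22 and X, the EZH2 list of sgC DMSO held 516 peaks on chromosome Y and other contigs, of which 52 overlapped neither mark. They were marked for a closer look because they are a signal in rows that no comparison above uses. No control library was analysed, and their part in the described class was not tested.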

How the results depend on the processing

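No paired analysis was possible because each antibody and condition has 1 library and the labels carry no replicate numbers. Of 63 recomputed values under 12 settings, 33 stayed within the counting interval of the reported value, or within 1.5 times a reported count, and 30 moved; the cause of the moves was not tested. Requiring no mark within 1 kb left 260 members, with H3K27me3 elsewhere in 35%, no mark in any condition in 52.7% and EZH2 in sgC enzalutamide in 27.3%. EZH2 peaks of −log10 q of at least 10 left 109 members, with H3K27me3 elsewhere in 42.2%, no mark in 48.6%, EZH2 in 31.2% (sgPRKCI DMSO), 45.9% (sgC enzalutamide) and 28.4% (sgPRKCI enzalutamide), a coding gene end in 12.8% and a median fold of 7.42. Merging EZH2 peaks within 1 kb gave 7.80% for EZH2 in sgPRKCI enzalutamide. Requiring the summit inside the other peak gave H3K27me3 elsewhere in 51.8%, no mark in 40.2%, and EZH2 in 11.2% (sgPRKCI DMSO) and 29.6% (sgC enzalutamide). Allowing a peak within 1 kb gave H3K27me3 elsewhere in 74.5%, no mark in 20.6%, and EZH2 in 20.6%, 46.5% and 13.7%. Lists of equal length gave H3K4me3 elsewhere in 11.0%, no mark in 39.8%, and EZH2 in 17.1% (sgC enzalutamide) and 0% (sgPRKCI enzalutamide). A window of 5 kb put 17.3% at a coding gene end, and ends of all genes 19.4%. The summit height over genome coverage, another quantity than the fold, had a median of 11.1. Without members of local background of 10 or more, an alternative added after seeing the data, 7.20% had EZH2 in sgPRKCI enzalutamide. A stricter H3K27me3 threshold (717 members) moved none of the values computed for it. Gene starts in place of gene ends, also added later and without chromosome 8, lay within 1 kb of 38 of 450 members (8.44%). Depth limits every absence: a peak that is not listed was below the caller's threshold, and no depth could be recovered for H3K27me3.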
